A study of Mus musculus with 24 samples.

Results

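The difference between OGT knockout (KO) and wild-type (WT) mouse macrophages in their response to LPS was examined in 16 of the 24 libraries of the series, those of the KO LPS, WT LPS, KO M0 and WT M0 groups with 4 libraries each. All were bone marrow-derived macrophages from the C57BL/6J background at an age of 12 weeks. The LPS groups received lipopolysaccharide at 100 ng/ml for 12 hours and the M0 groups were unstimulated. How the knockout was made, and which part of the gene it removes, is not stated in the sources used here. Libraries carry the number in their label code, 5 to 8 in KO and 1 to 4 in WT, and the labels do not say whether they came from separate animals or cultures, so p-values cover the spread among libraries only. The difference was tested as a single interaction term, the LPS response of KO minus the LPS response of WT on the log2 scale. A positive term means that a gene rose more, or fell less, with LPS in KO than in WT.

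OGT is the enzyme that attaches the sugar N-acetylglucosamine to serines and threonines of nuclear and cytosolic proteins, and OGA removes it. LPS, a component of the outer membrane of Gram-negative bacteria, is sensed by Toll-like receptor 4. In macrophages this receptor signals through the adaptor MyD88 to NF-kB and through the adaptor TRIF to interferon genes, so that cytokines and chemokines are induced first and interferon-stimulated genes follow. The comparison addresses whether OGT changes this activation.

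Of the 16 libraries, 13 were deep, with 63429271 to 90900801 gene counts. KO LPS library 7 and WT LPS libraries 1 and 2 were shallow, with 172771 to 209368 counts. Levels are counts per 1e+06 counts (CPM). A count of 0 allows up to 3 counts, which is 0.0309 to 0.05003 CPM at the deep and 15.05 to 18.03 CPM at the shallow depth, and this limit covers counting error only. Macrophage genes were present in all 16 libraries, with Csf1r, the receptor for the growth factor CSF1, at 691 to 1520 CPM and Adgre1, which encodes F4/80, at 451 to 2230 CPM. KO libraries 5 and 6 stood apart from 7 and 8 in several genes described here. WT M0 library 1 held more transcript of several LPS-induced genes than the other WT M0 libraries. In bulk libraries such as these, fewer cells of a type and less RNA per cell cannot be told apart.

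Ogt (chromosome X, 101640011 to 101684351, GRCm38.p6) had 31, 34.2, 54.1 and 34.7 CPM in KO LPS libraries 5 to 8, against 55.2, 66.5, 51 and 52.6 CPM in WT LPS libraries 1 to 4. It had 35.2, 35.2, 37.7 and 36.3 CPM in KO M0 libraries, against 48.5, 51.9, 47.8 and 53.7 CPM in WT M0 libraries. Each deep KO library lay under each WT library of its state, and 54.1 CPM stands for 9 counts in the shallow KO LPS library 7. The counts cover the whole gene, so they do not measure a deleted part alone. The genotype difference in Ogt was not called different between the states (interaction -0.16 ± 0.10, SE, adjusted p = 0.361). Mgea5, the files' name for the OGA gene, was also not called (0.10 ± 0.10, adjusted p = 0.558). None of the 14 hexosamine and O-GlcNAc cycling genes passed in edgeR or in DESeq2, and 0 had an unadjusted p under 0.05 in edgeR.

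Of 14402 genes tested, 842 (5.85%) were called with a higher LPS response in KO than in WT and 594 (4.12%) with a lower one, 9.97% in either direction. Calls are at an adjusted p under 0.05 in edgeR's quasi-likelihood test, with Benjamini-Hochberg adjustment over all 14402 genes, as for every adjusted p below unless another test is named. The differences were mostly moderate: 171 of the higher and 75 of the lower terms were at least 2-fold, and the medians of the called terms were 0.60 and -0.49. Of the called genes, 58.6% were higher with TMM scaling. This share was 54% (803 higher and 685 lower) with upper-quartile factors, 69.5% (968 and 424) with RLE size factors and 88.5% (494 and 64) in DESeq2. The median term of all genes lay between -0.0441 with upper-quartile factors and 0.00811 with RLE size factors. Without the 3 shallow libraries 982 genes were higher and 595 lower, and 1265 genes were called in the same direction with and without them. Without KO libraries 5 and 6 there were 972 higher and 975 lower calls, of which 614 and 436 were shared with the full set. Without KO libraries 7 and 8 there were 1357 higher and 868 lower calls, of which 804 and 470 were shared. The 2 deep WT LPS libraries carried most weight: without library 3 there were 429 higher and 231 lower calls, and without library 4 there were 472 and 265. Without KO LPS library 6 there were 556 higher calls, and without KO LPS library 8 there were 1123 lower calls. A set of 517 genes, 366 higher and 151 lower, was called whichever of the 16 libraries was left out.

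LPS itself raised 3608 genes (25.1%) and lowered 6577 (45.7%) in KO, and raised 3247 (22.5%) and lowered 5350 (37.1%) in WT. These counts were not made at equal depth, since KO LPS library 7 and WT LPS libraries 1 and 2 were shallow. The part of depth in the larger KO counts was not tested. Most higher terms belonged to genes that LPS raised. Of 2826 genes raised in both genotypes, 469 rose more in KO and 37 rose less. A further 132 genes with a higher term were called raised in KO and not in WT, which by itself does not separate the genotypes, whereas the term does. Of 4800 genes lowered in both genotypes, 134 fell less in KO and 256 fell more. A lower term accompanied a fall called in KO and not in WT for 219 genes, and 47 genes responded in opposite directions, 26 of them with a higher term in KO. These classes share their libraries with the interaction term and are a description of it.

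The interaction also equals the KO to WT difference with LPS minus that in M0. KO differed from WT in 4226 genes with LPS (29.3%) and in 2898 genes in M0 (20.1%). For 678 of the 842 higher terms the genotype difference with LPS was larger than that in M0, and for 164 the M0 difference was the larger. The genotypes differed with LPS only for 546 of the higher genes, in M0 only for 120, and in both states with opposite sign for 82. Among the 594 lower terms the LPS difference was larger for 485 and the M0 difference for 109. In genes of the last kind the unstimulated cultures differed and the levels with LPS were closer, as the values of several genes below show.

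**Figure D1:**
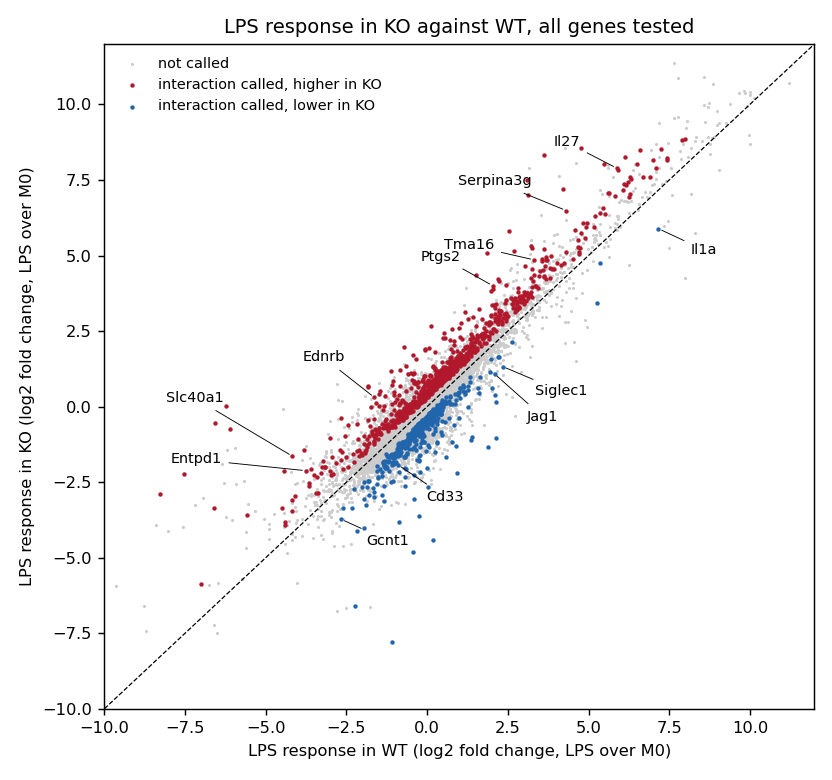
LPS response in WT (x axis) and in KO (y axis), as log2 fold changes of LPS over M0, for the 14402 genes tested. Red points are the 842 genes with a higher response in KO, blue points the 594 with a lower one, grey points were not called, and the dashed line marks equal responses.

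The highest term among genes with at least 20 CPM in a group was that of Slc40a1 (chromosome 1, 45908070 to 45926532), which encodes ferroportin, the cellular iron exporter. LPS lowered Slc40a1 in both genotypes, and less so in KO. It had 48.8, 52.6, 30.1 and 27.7 CPM in KO LPS libraries, against 0, 10.2, 10.5 and 9.14 CPM in WT LPS libraries. It had 178, 162, 96.7 and 98.2 CPM in KO M0 libraries, against 173, 173, 176 and 183 CPM in WT M0 libraries. Every KO LPS library was above every WT LPS library, KO libraries 5 and 6 were higher than 7 and 8 in both states, and the 0 belongs to shallow WT LPS library 1. The log2 response was -1.64 in KO and -4.17 in WT, an interaction of 2.53 ± 0.31 (adjusted p = 6.05e-05), and it was 2.56 without the shallow libraries.

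Serpina3g (chromosome 12, 104236147 to 104241939), an intracellular serine protease inhibitor of the serpin family, had the next highest term. It had 195, 191, 72.1 and 110 CPM in KO LPS libraries, against 35.1, 25.6, 37.2 and 41.9 CPM in WT LPS libraries. In M0 the genotypes overlapped, with 1.57 to 1.90 CPM in KO libraries and 1.79 to 2.37 CPM in WT libraries. The interaction was 2.18 ± 0.26 (adjusted p = 4.52e-05). Serpina3g belongs to a cluster of near-identical genes, so its reads and those of Serpina3f (2.14) may be shared between them. Its promoter is shown because it had the highest term of the genes with an entry in the RefSeq promoter table (GRCm38.p6, plus strand, chr12:104235897-104236146, the 250 bases before the annotated start).
Serpina3g: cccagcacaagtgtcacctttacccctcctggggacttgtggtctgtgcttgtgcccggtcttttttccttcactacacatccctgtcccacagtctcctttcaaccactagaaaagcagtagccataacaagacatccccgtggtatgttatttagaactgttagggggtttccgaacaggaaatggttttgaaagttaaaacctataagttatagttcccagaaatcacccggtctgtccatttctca
The sequence held no match, on either strand, to the 5 motifs searched: kB (GGANNTTCC), ISRE (GAAANNGAA), AP-1 (TGANTCA), CRE (TGACGTCA) and ARE (TGACNNNGC). Only these letters were searched, and kB sites in particular also occur in other letters, such as the gggggtttcc of this sequence. The lack of a match is therefore not a lack of sites.

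Several other genes with high terms encode regulators of inflammation. Il27, the p28 subunit of the cytokine IL-27, had 59.3, 55.9, 60.1 and 43.7 CPM in KO LPS libraries, against 15.0, 30.7, 19.1 and 22.9 CPM in WT LPS libraries, with 0.162 to 0.420 CPM in all M0 libraries (2.02 ± 0.30, adjusted p = 0.000321). Ebi3, which encodes the partner subunit of IL-27, was also called higher (1.05). Ptgs2, which encodes the inducible cyclooxygenase COX-2, had 211, 229, 174 and 160 CPM in KO LPS libraries, against 50.2, 61.4, 53.4 and 73.8 CPM in WT LPS libraries. In M0 libraries Ptgs2 had 8.95, 8.14, 17.2 and 15.8 CPM for KO, against 18.5, 15.7, 12.6 and 14.7 CPM for WT (interaction 1.96 ± 0.30, adjusted p = 0.000331). The KO LPS values of both genes lay above all WT LPS values, and for Ptgs2 the KO M0 values split between libraries 5 and 6 and libraries 7 and 8.

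Tnip3, an A20-binding inhibitor of NF-kB signalling, differed between genotypes in both states and in opposite directions. It had 278, 281, 270 and 187 CPM in KO LPS libraries, against 100, 123, 123 and 132 CPM in WT LPS libraries. In M0 libraries KO had 8.48, 8.81, 4.24 and 4.62 CPM, against 15.9, 12.8, 11.3 and 12.2 CPM for WT. The groups did not overlap in either state, and the interaction was 1.98 ± 0.28 (adjusted p = 0.000193). The long noncoding RNA AW112010 had the same arrangement, with a mean of 692 ± 105 CPM in KO LPS and 432 ± 50.8 CPM in WT LPS, and 2.63 ± 0.739 CPM in KO M0 and 4.60 ± 0.847 CPM in WT M0 (SD, n = 4; interaction 1.55 ± 0.23, adjusted p = 0.000244).

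The smallest adjusted p of the named genes belonged to Tma16 and S1pr3 (1.41e-08 for each). Tma16, annotated as a translation machinery-associated protein from its yeast counterpart, had 245, 246, 276 and 256 CPM in KO LPS libraries, against 80.2, 51.2, 67.5 and 64.7 CPM in WT LPS libraries (1.54 ± 0.10). S1pr3, a receptor for sphingosine-1-phosphate, had 161, 173, 168 and 146 CPM in KO LPS libraries, against 70.2, 71.7, 76.0 and 73.4 CPM in WT LPS libraries (1.53 ± 0.10). In M0, S1pr3 was lower in KO, at 18.9 to 22 CPM against the 25.1 to 28.7 CPM of WT. The groups did not overlap for either gene with LPS.

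Ednrb fell with LPS in WT, and Entpd1 fell in both genotypes and less so in KO. Ednrb, the endothelin receptor type B, had 66.1, 70.0, 54.1 and 54.8 CPM in KO LPS libraries, against 10.0, 5.12, 18.5 and 19.4 CPM in WT LPS libraries. It had 63.6, 63, 38.7 and 40.4 CPM in KO M0 and 55.3, 47.8, 62.9 and 65.4 CPM in WT M0 (1.93 ± 0.23, adjusted p = 5.73e-05). Entpd1, which encodes the ATP-degrading surface enzyme CD39, had 39.1, 35.7, 18 and 37.8 CPM in KO LPS libraries, against 0, 0, 9.58 and 9.63 CPM in WT LPS libraries (1.64 ± 0.14, adjusted p = 1.44e-06). Entpd1 averaged 162 ± 10.2 CPM in KO M0 and 128 ± 11.5 CPM in WT M0 (SD, n = 4). The 0 values are those of the shallow WT libraries, and the deep WT LPS libraries also lay under every KO LPS library.

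Tgtp1, an interferon-inducible GTPase, averaged 43.8 ± 5.51 CPM in KO LPS and 10.6 ± 4.08 CPM in WT LPS (1.93 ± 0.36, adjusted p = 0.00183). Its near-identical copy Tgtp2 had a term of 0.33 that was not called, and reads may be split between the copies. Hspa1a, which encodes an inducible HSP70 chaperone, had 167, 159, 54.1 and 85.1 CPM in KO LPS libraries, against 35.1, 40.9, 31.5 and 31.2 CPM in WT LPS libraries (1.85 ± 0.24, adjusted p = 0.000101). Hspa1a and its near-identical neighbour Hspa1b (1.18 ± 0.18) may also share reads. As for Serpina3g, the values of Hspa1a in KO LPS libraries 5 and 6 were more than those in 7 and 8.

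**Figure D2:**
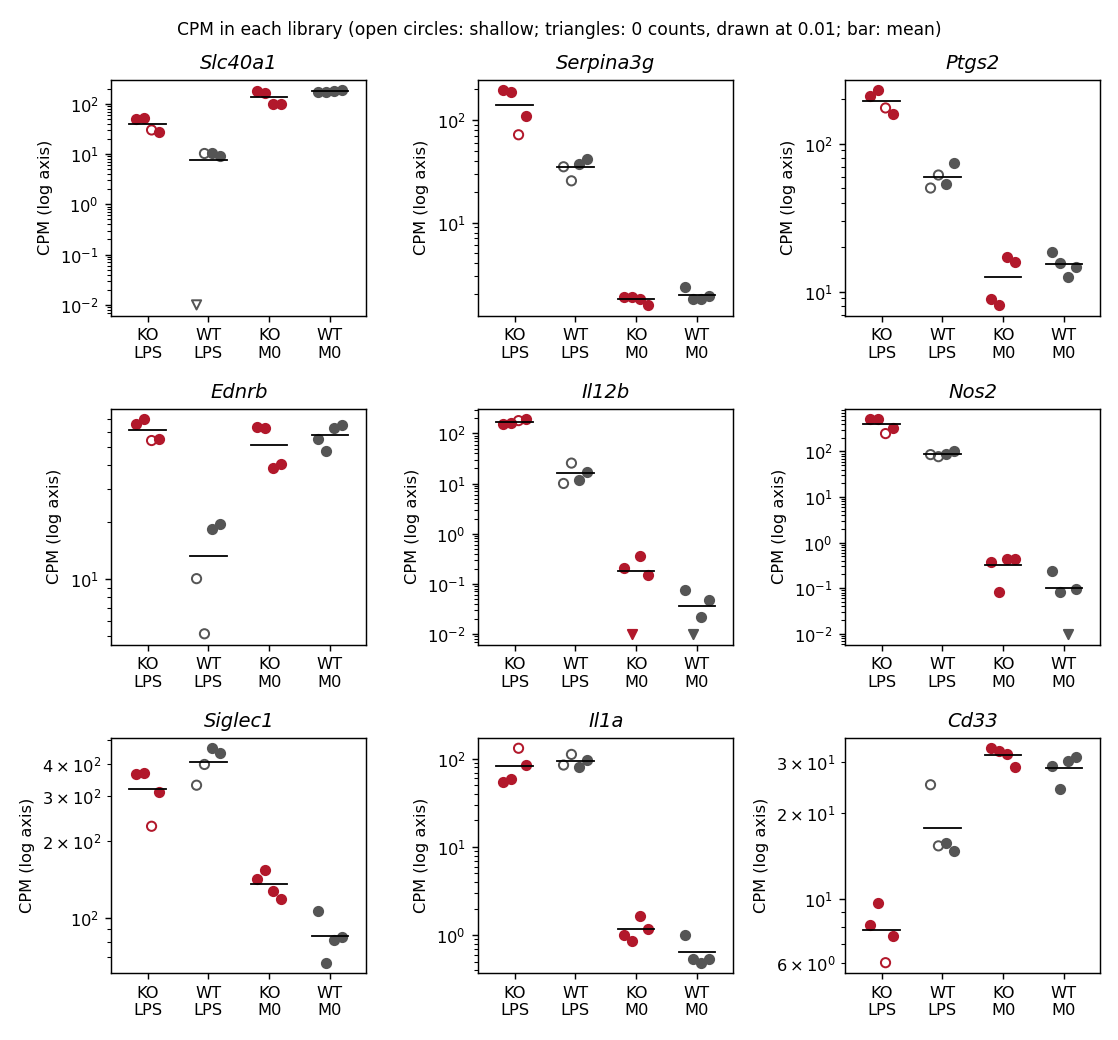
CPM on a log axis for 9 genes in each library of KO LPS, WT LPS, KO M0 and WT M0; circles are libraries (open where shallow), triangles are counts of 0 drawn at 0.01 CPM, and bars are group means. Slc40a1, Serpina3g, Ptgs2, Ednrb, Il12b and Nos2 are higher in KO than in WT in every LPS library, whereas Siglec1 and Il1a overlap with LPS and Cd33 is lower in KO LPS.

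The lower terms were smaller. Il1a (chromosome 2, 129299609 to 129310186), which encodes the cytokine IL-1α, had the largest. It had 55.4, 59.1, 132 and 85.2 CPM in KO LPS libraries, against 85.3, 113, 81.9 and 98.5 CPM in WT LPS libraries, so the groups overlapped with LPS. It had 1.01, 0.851, 1.65 and 1.18 CPM in KO M0 libraries, against 0.987, 0.532, 0.485 and 0.532 CPM in WT M0 libraries. The response was 5.89 in KO and 7.17 in WT (interaction -1.28 ± 0.32, adjusted p = 0.0133), and the genotype difference was called in M0 and not with LPS. Without WT LPS library 4 the term of Il1a was -1.193 with an adjusted p of 0.0536. The promoter of Il1a is shown beside that of Serpina3g as the gene at the other end of the range (RefSeq, GRCm38.p6, minus strand, chr2:129309973-129310222, the 250 bases before the start used in the promoter table, which lies inside the annotated gene span). Capitals mark the match to the AP-1 motif, which begins 12 bases before that start.
Il1a: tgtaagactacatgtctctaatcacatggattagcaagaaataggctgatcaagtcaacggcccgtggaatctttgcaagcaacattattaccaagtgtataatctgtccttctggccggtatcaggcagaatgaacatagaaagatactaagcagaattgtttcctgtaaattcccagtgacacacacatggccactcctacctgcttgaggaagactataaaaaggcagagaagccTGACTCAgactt
It held no match to the other 4 motifs.

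Of all 27025 promoters of the table, cut to the same 250 bases, 3.56% held the kB motif, 7.16% the ISRE, 6.85% AP-1, 1.6% CRE and 10.1% ARE, counting both strands and letting motifs overlap. Of 632 promoters of genes with a higher term, 11.6% held the ISRE, against 3.97% of 453 promoters of genes with a lower term and 6.35% of 10842 promoters of tested genes. The kB motif was in 6.01% of the higher, 3.09% of the lower and 3.76% of the tested promoters. AP-1 was in 6.01%, 6.4% and 4.57%, CRE in 2.85%, 2.43% and 2.65%, and ARE in 14.6%, 11.5% and 12.2% of the same sets. These shares describe letters in a short window and not binding, and sites written in other letters are not counted.

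A pair of sialic acid-binding lectin genes of macrophages was among the lower terms. Siglec1, which encodes CD169, had 367, 370, 228 and 311 CPM in KO LPS libraries, against 331, 399, 462 and 442 CPM in WT LPS libraries. It had 142, 154, 127 and 119 CPM in KO M0 libraries, against 106, 66.6, 81.9 and 84.1 CPM in WT M0 libraries. The genotypes overlapped with LPS and separated in M0, where KO was higher (interaction -1.02 ± 0.18, adjusted p = 0.00138). Cd33, the other lectin gene of the pair, had 8.11, 9.71, 6.01 and 7.46 CPM in KO LPS libraries, against 25.1, 15.4, 15.7 and 14.7 CPM in WT LPS libraries. In M0 it had 28.9 to 33.6 CPM in KO libraries and 24.3 to 31.4 CPM in WT libraries, so the genotypes separated with LPS only (-1.02 ± 0.14, adjusted p = 0.000187).

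Other genes with lower terms are known from several settings. Dio3, a deiodinase that inactivates thyroid hormone, averaged 14.9 ± 2.15 CPM in KO LPS and 29.4 ± 4.97 CPM in WT LPS (SD, n = 4), with 32.1 ± 3.57 CPM in KO M0 and 29.7 ± 3.48 CPM in WT M0. Its term was -1.02 ± 0.15 (adjusted p = 0.000227). Gcnt1, an enzyme that branches O-linked glycans, fell further in KO, to 1.90, 1.97, 0 and 3.27 CPM in KO LPS libraries, against 0, 5.12, 6.78 and 5.86 CPM in WT LPS libraries (-1.06 ± 0.19, adjusted p = 0.00154). The 0 values and the 5.12 CPM, which stands for 1 count, are those of the shallow libraries and carry little information at this level. The term of Gcnt1 was -1.05 without the shallow libraries. Pprc1, a coactivator of mitochondrial gene programmes, averaged 28.1 ± 1.72 CPM in KO LPS and 49.1 ± 31.9 CPM in WT LPS, where the shallow libraries gave 15.0 and 92.1 CPM and the deep ones 45.9 and 43.5 CPM (-0.89 ± 0.15, adjusted p = 0.00102).

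Jag1, a Notch ligand, and the fibroblast growth factor receptor gene Fgfr2 were higher in KO in every M0 library, and neither was called different between genotypes with LPS. Jag1 averaged 78.1 ± 14.8 CPM in KO LPS and 109 ± 11.6 CPM in WT LPS, with 36.9 ± 8.26 CPM in KO M0 and 24.5 ± 2.18 CPM in WT M0 (SD, n = 4; -1 ± 0.21, adjusted p = 0.00396). Fgfr2 averaged 7.73 ± 1.35 CPM in KO LPS and 10.8 ± 6.71 CPM in WT LPS, with 49.1 ± 8.73 CPM in KO M0 and 26.1 ± 3.68 CPM in WT M0 (-1.01 ± 0.19, adjusted p = 0.00206). Lama1, which encodes a laminin chain of basement membranes (-0.80), Sox12, a transcription factor of the SOX family (-0.84), Mtss1l (-0.86) and Ldlrad3 (-1) completed the 12 largest lower terms. For Sox12, Mtss1l and Ldlrad3 KO was called higher than WT in M0 and lower with LPS. In DESeq2 the terms of Ldlrad3 (adjusted p = 0.073), Gcnt1 (0.125), Sox12 (0.056) and Lama1 (0.119) were not called. Lama1 was also not called without WT LPS library 3 (adjusted p = 0.0532).

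**Figure D3:**
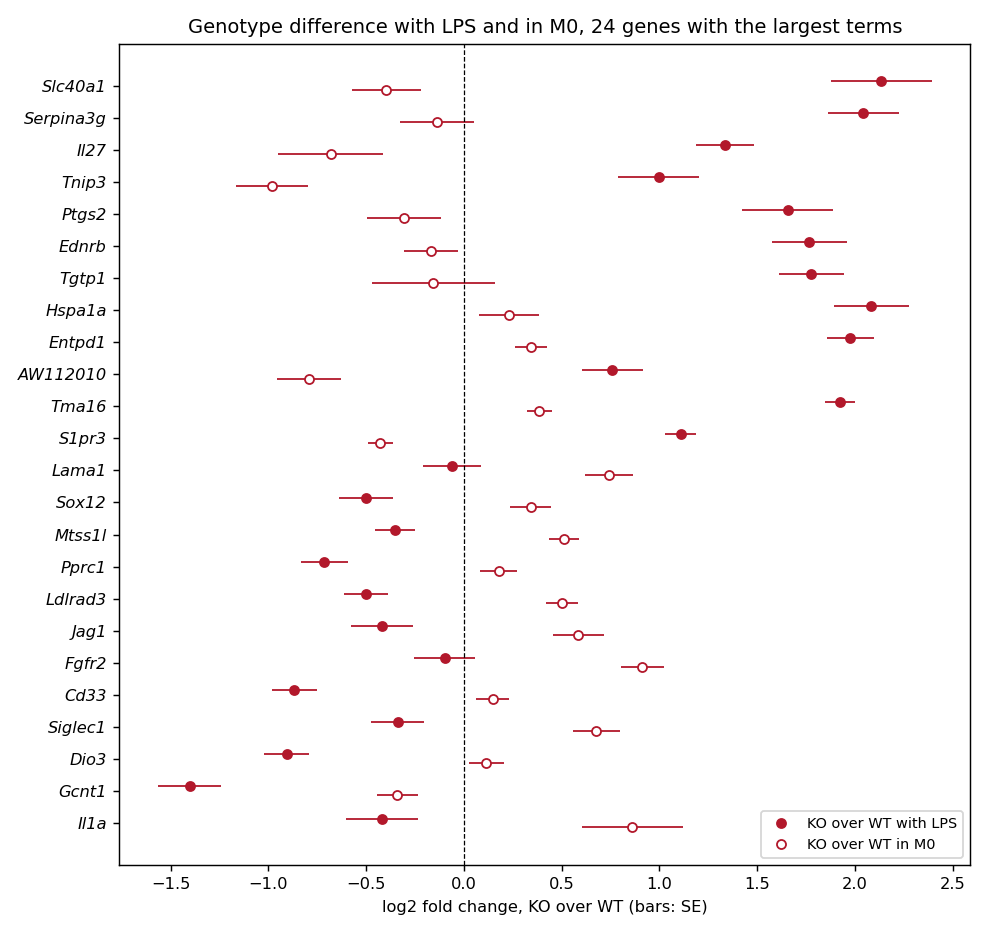
Log2 fold change of KO over WT with LPS (filled) and in M0 (open), with SE, for the 12 largest higher and 12 largest lower terms. The distance between the filled and the open point of a gene is its interaction; for 9 of the 12 higher terms the M0 point lies below 0, and for 11 of the 12 lower terms it lies above 0.

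The classical LPS products Il12b and Nos2 differed between genotypes with LPS while their interaction was not called. Il12b, which encodes the p40 subunit shared by IL-12 and IL-23, had 155, 164, 180 and 191 CPM in KO LPS libraries, against 10.0, 25.6, 11.8 and 17.1 CPM in WT LPS libraries. It had 0.206, 0, 0.361 and 0.150 CPM in KO M0 libraries, against 0.0740, 0, 0.0215 and 0.0473 CPM in WT M0 libraries. The term of Il12b was not called (1.41 ± 1.03, adjusted p = 0.428). Nos2, the inducible nitric oxide synthase, had 503, 506, 246 and 332 CPM in KO LPS libraries, against 85.3, 76.8, 88.0 and 102 CPM in WT LPS libraries, and was also not called (0.53 ± 0.72, adjusted p = 0.698). In M0, Nos2 had 0.0841 to 0.436 CPM in KO libraries and 0 to 0.234 CPM in WT libraries. With LPS both genes were called higher in KO than in WT (log2 difference 3.55 for Il12b, adjusted p = 1.55e-09, and 2.19 for Nos2, adjusted p = 7.13e-07). In M0, from which the log2 response is taken, their values were under 1 CPM and overlapped. The M0 difference was also in the direction of KO, called for Il12b (log2 2.14, adjusted p = 0.0479) and not for Nos2 (1.66, adjusted p = 0.0536).

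Cxcl10, a chemokine for T cells, had 2730, 2728, 1941 and 2368 CPM in KO LPS libraries, against 1665, 1361, 1642 and 1714 CPM in WT LPS libraries. Irg1, the itaconate-producing enzyme also named Acod1, had 3409, 3498, 3017 and 3071 CPM in KO LPS libraries, against 2187, 2155, 2366 and 2441 CPM in WT LPS libraries. Il1b, which encodes IL-1β, had 474, 482, 517 and 564 CPM in KO LPS libraries, against 1018, 834, 639 and 839 CPM in WT LPS libraries. The values did not overlap for any of these 3 genes, with KO above WT for Cxcl10 and Irg1 and below it for Il1b, but the difference with LPS was not called in edgeR (adjusted p = 0.123, 0.43 and 0.151). The fit estimated the spread of a gene over all groups together, so its spread in M0 also enters the test with LPS. The part of this in the missing calls was not tested. In M0, Il1b was called lower in KO (log2 difference -1.46, adjusted p = 0.0495), with overlapping values. Cxcl10 and Irg1 were not called in M0 (adjusted p = 0.626 and 0.828). The interaction terms of Cxcl10 (0.32 ± 0.48), Irg1 (0.71 ± 0.70) and Il1b (0.80 ± 0.62) were positive and not called. Without WT M0 library 1, which had 3.54 CPM of Cxcl10, 7.75 CPM of Irg1 and 4.11 CPM of Il1b, these 3 terms were negative and again not called.

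Il6, Tnf and Il10 had higher terms that were called. Il6 had 39.4, 42.8, 0 and 37.9 CPM in KO LPS libraries, against 25.1, 30.7, 19.7 and 26.4 CPM in WT LPS libraries, the 0 being that of shallow library 7 (1.25 ± 0.34, adjusted p = 0.0233). The call of Il6 was lost in 5 of the 16 fits that leave out 1 library (KO LPS 6, WT LPS 3, KO M0 5, WT M0 2 and WT M0 3), without KO libraries 5 and 6 (adjusted p = 0.157) and in DESeq2 (adjusted p = 0.128). Tnf averaged 243 ± 32.1 CPM in KO LPS and 213 ± 19.8 CPM in WT LPS, with overlapping values, and 6.01 ± 0.694 CPM in KO M0 and 8.35 ± 1.56 CPM in WT M0 (0.61 ± 0.17, adjusted p = 0.0242). Its call was lost without the shallow libraries (adjusted p = 0.0602) and in 5 of the 16 fits that leave out 1 library. Il10, which encodes an anti-inflammatory cytokine, had 15.1, 16.5 and 9.17 CPM in the deep KO LPS libraries, against 4.88 and 4.95 CPM in the deep WT LPS libraries, and 0 counts in all 3 shallow ones (1.92 ± 0.38, adjusted p = 0.00289).

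The term of Rps6kb1, the gene of the mTOR-activated S6 kinase, was not called (-0.10 ± 0.14, adjusted p = 0.729). Lyz2, the lysozyme gene of myeloid cells, had 3309 to 3730 CPM in KO LPS and 7506 to 8446 CPM in WT LPS, and 4800 to 5744 CPM in KO M0 and 8687 to 10116 CPM in WT M0. The genotypes separated in both states, and the term of Lyz2 was not called (-0.31 ± 0.10, adjusted p = 0.0568).

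For comparison with the gene lists, 5.85% of all genes tested were called higher and 4.12% lower. Of the genes that LPS raised in both genotypes, 16.6% were called higher and 1.31% lower. Among the gene lists, interferon-inducible GTPases stood at the top. These proteins act on membranes that enclose intracellular pathogens. Of 18 tested, 14 rose more in KO and none less, with a median term of 1.13, against -0.03 for all genes tested. The median KO to WT difference of the list was 0.70 with LPS and -0.25 in M0. Igtp averaged 428 ± 95.3 CPM in KO LPS and 326 ± 29.5 CPM in WT LPS, with 8.50 ± 0.283 CPM in KO M0 and 11.8 ± 1.46 CPM in WT M0 (SD, n = 4; 0.98 ± 0.14, adjusted p = 0.000227). Gbp3 averaged 925 ± 49.9 CPM in KO LPS and 589 ± 46.4 CPM in WT LPS, at 7.70 and 7.71 CPM in M0 (0.67 ± 0.10, adjusted p = 0.000382). Irgm1 averaged 603 ± 32.7 CPM in KO LPS and 351 ± 50.2 CPM in WT LPS (0.77 ± 0.12, adjusted p = 0.000313). The Gbp and Irg genes form families of similar sequence, so single members are less certain than the list.

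Of 48 interferon-stimulated genes outside that family, 27 were called higher and none lower, and the term was positive for all 48 (median 0.62). The median KO to WT difference was 0.36 with LPS and -0.23 in M0. Irf1, a transcription factor induced by interferon and NF-kB, averaged 316 ± 6.60 CPM in KO LPS and 190 ± 44.7 CPM in WT LPS, with 39.3 ± 3.04 CPM in KO M0 and 54.0 ± 2.76 CPM in WT M0 (1.02 ± 0.12, adjusted p = 4.52e-05). Mx2, which RefSeq annotates as a transcribed pseudogene in GRCm38.p6, averaged 160 ± 14.4 CPM in KO LPS and 98.6 ± 12.9 CPM in WT LPS, with 0.817 ± 0.181 CPM in KO M0 and 1.19 ± 0.130 CPM in WT M0 (1.24 ± 0.16, adjusted p = 0.000101). Isg15, a ubiquitin-like modifier, was called with 0.75, and the immunoproteasome genes Psmb8, Psmb9 and Psmb10 with 0.49, 0.74 and 0.69. The count for this list was 23 without the shallow libraries, 17 in the fit of all 24 libraries and 20 to 32 when single libraries were left out. Of 20 genes of MHC and antigen presentation, 5 (25%) rose more in KO or fell less. They were Cd83, a surface protein of activated antigen-presenting cells (0.93), the peptide transporter gene Tap2 (0.67), H2-Q4 (0.66), H2-T23 (0.45) and H2-K1 (0.40). The class I genes are alike in sequence, and 3 genes of the list were higher without WT LPS library 3 or WT LPS library 4.

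Of 22 proinflammatory cytokines, 9 were higher and 1, Il1a, was lower, with a median term of 0.77. Csf1, the growth factor of macrophages, averaged 793 ± 91.9 CPM in KO LPS and 580 ± 92.9 CPM in WT LPS, with 473 ± 57.3 CPM in KO M0 and 579 ± 22 CPM in WT M0. It rose with LPS in KO (log2 response 0.77), with a response of 0.01 in WT (interaction 0.76 ± 0.14, adjusted p = 0.00157). Vegfa, the vascular growth factor, averaged 336 ± 9.64 CPM in KO LPS and 214 ± 30.3 CPM in WT LPS, with 129 and 130 CPM in M0 (0.59 ± 0.09, adjusted p = 0.000433). The count of higher cytokines was 5 without KO libraries 5 and 6 and 4 without WT LPS library 3.

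Of 25 chemokines, 9 were higher and none lower, with a median of 0.63. The genotype difference was called in M0 and not with LPS for Cxcl2, and in both states with opposite sign for Ccl2. Cxcl2, a neutrophil attractant, averaged 41.5 ± 9.43 CPM in KO LPS and 39.9 ± 6.38 CPM in WT LPS, with 1.49 ± 0.372 CPM in KO M0 and 3.56 ± 0.397 CPM in WT M0 (1.35 ± 0.20, adjusted p = 0.000227). Ccl2, which attracts monocytes, averaged 980 ± 167 CPM in KO LPS and 798 ± 60.9 CPM in WT LPS, with 16.3 ± 1.65 CPM in KO M0 and 26.5 ± 3.25 CPM in WT M0 (1.03 ± 0.15, adjusted p = 0.000227). Ccl12 overlapped in M0, at 4.76 ± 0.321 CPM in KO M0 and 5.04 ± 0.368 CPM in WT M0. It averaged 201 ± 51.5 CPM in KO LPS and 124 ± 10.5 CPM in WT LPS (0.84 ± 0.14, adjusted p = 0.000893). With LPS both genes were called higher in KO, but shallow KO LPS library 7 overlapped with WT. It had 132 CPM of Ccl12, against 139 CPM in WT LPS library 3, and 769 CPM of Ccl2, against 868 CPM in WT LPS library 1. Over the list the median KO to WT difference was 0.19 with LPS and -0.36 in M0.

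Of 28 NF-kB subunits, feedback and early-response genes, 11 were higher and 1, the immediate-early factor Egr1 (-0.92), was lower, with a median of 0.41. Icam1, an adhesion molecule, averaged 666 ± 19.8 CPM in KO LPS and 522 ± 42.1 CPM in WT LPS, with 38 ± 2.92 CPM in KO M0 and 55.7 ± 6.07 CPM in WT M0 (0.87 ± 0.11, adjusted p = 8.77e-05). Traf1, a signalling adaptor, averaged 194 ± 12.7 CPM in KO LPS and 139 ± 14 CPM in WT LPS, with 1.02 ± 0.171 CPM in KO M0 and 1.85 ± 0.500 CPM in WT M0 (1.29 ± 0.20, adjusted p = 0.000387). The inhibitors Nfkbia (0.62), Nfkbib (0.56) and Nfkbie (0.87) and the phosphatase gene Dusp1 (1.01) were also higher. The median KO to WT difference of the list was 0.24 with LPS and -0.32 in M0. Egr1 was not called without the shallow libraries, without WT LPS library 3 or WT LPS library 4, or in DESeq2.

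Of 27 inducible effector enzymes and M1 surface proteins, 10 were higher and 1 lower, the cationic amino acid transporter gene Slc7a2 (-0.59). Cd40, a costimulatory receptor, averaged 667 ± 60.7 CPM in KO LPS and 322 ± 18.7 CPM in WT LPS, with 7.09 ± 1.17 CPM in KO M0 and 7.51 ± 0.652 CPM in WT M0 (1.14 ± 0.14, adjusted p = 5.73e-05). Procr, the endothelial protein C receptor, averaged 189 ± 33.2 CPM in KO LPS and 75.3 ± 6.93 CPM in WT LPS (1.01 ± 0.17, adjusted p = 0.00072). The higher count was 5 without WT LPS library 3, 6 without WT LPS libraries 1 and 2 and 16 without KO libraries 7 and 8, and the lower count was 0 in 7 of the 16 fits that leave out 1 library. Of 19 inflammasome and necroptosis genes, 10 were higher and none lower, and 6 were higher without WT LPS library 3 or WT LPS library 4. Casp4, the caspase that binds cytosolic LPS, averaged 194 ± 14.6 CPM in KO LPS and 93.6 ± 14.5 CPM in WT LPS, with 10.4 ± 1.23 CPM in KO M0 and 9.38 ± 0.371 CPM in WT M0 (1.04 ± 0.11, adjusted p = 2.06e-05). Ripk2, a kinase downstream of NOD receptors (0.83), Zbp1, a sensor of Z-form nucleic acids (0.87), and Casp1 (0.77) were among the others. Of 26 Toll-like receptors, co-receptors and adaptors, 5 (19.2%) were higher, near the 16.6% of genes raised by LPS in both genotypes. They were Tlr3 (0.65), Irak2 (0.47), Tlr9 (1.14), Ly86 (0.48) and Cd180 (0.40). That count was 2 in DESeq2 and without KO LPS library 6, WT LPS library 3 or WT LPS library 4. It was 3 without KO LPS library 5, WT LPS library 2, KO M0 library 7, KO M0 library 8, WT M0 library 1 or WT M0 library 4, and 8 without KO LPS library 8 or without KO libraries 7 and 8.

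**Figure D4:**
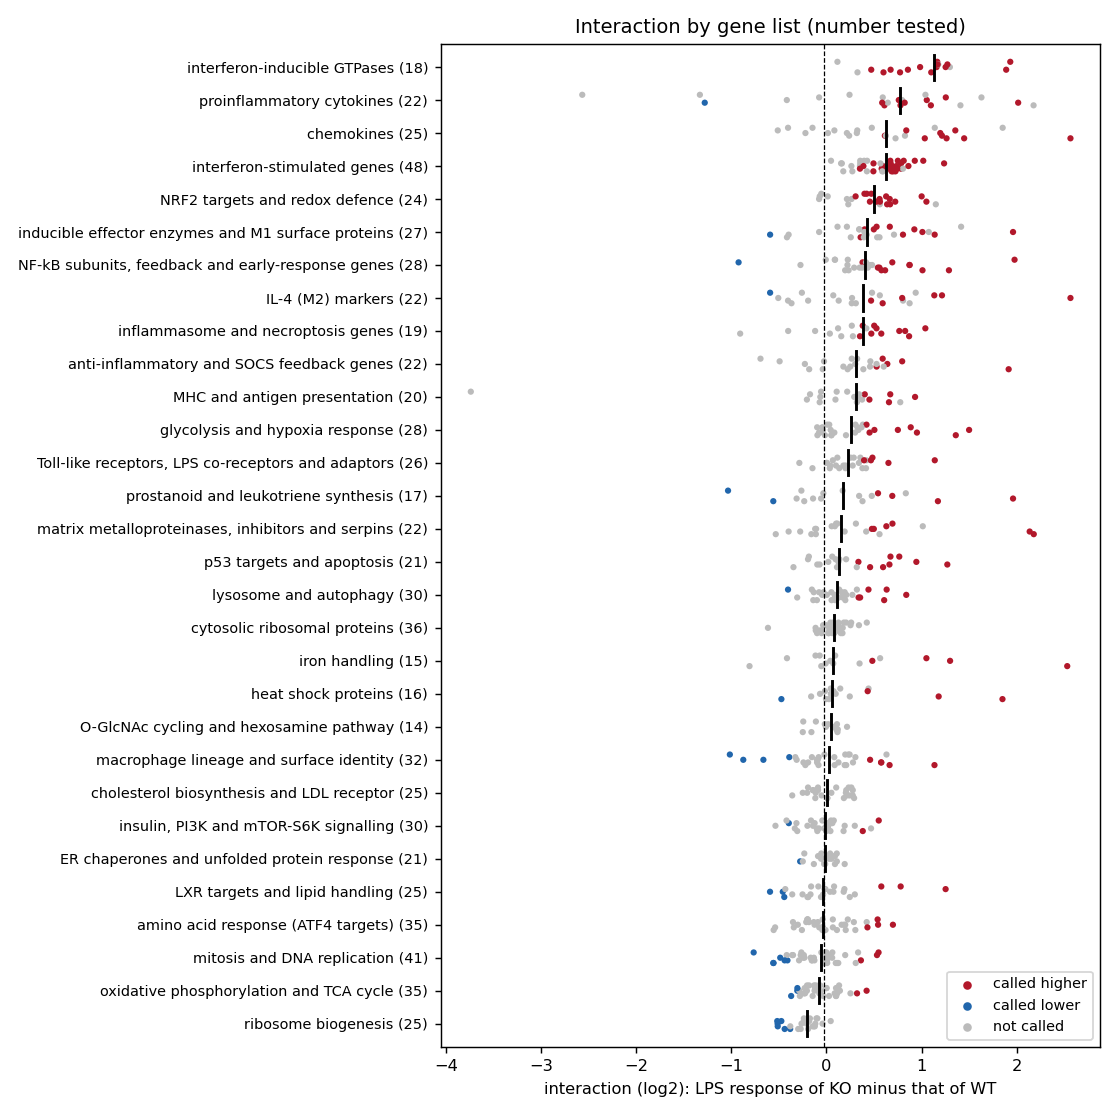
Interaction term (log2) of each tested member of the 30 gene lists, with the number tested in brackets; red and blue points were called higher and lower, grey points were not called, black bars are list medians and the dashed line is the median of all genes. Interferon-inducible GTPases have the highest median (1.13) and ribosome biogenesis the lowest (-0.21).

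For the lists above with no lower call, DESeq2 made none either, and edgeR gave a lower term at an unadjusted p under 0.05 for 1 gene each of the inflammasome, Toll-like receptor and antigen presentation lists and for 0 of the others. Genes of the feedback on inflammation were among those that differed. Of 22 anti-inflammatory and SOCS feedback genes, 5 (22.7%) were higher and none lower, beside 16.6% higher among genes raised by LPS in both genotypes. They were Il10, Il10ra (0.64), Il4ra (0.80), Klf4 (0.59) and Cd274, which encodes PD-L1 (0.53). The count was 7 without the shallow libraries, 11 without KO libraries 7 and 8 and 3 without WT LPS library 3. Of 22 IL-4 (M2) markers, 6 were higher and 1 lower, with 3 higher without WT LPS library 3 and 2 in DESeq2. Mrc1, the mannose receptor, was lowered by LPS in both genotypes and less so in KO, averaging 77.8 ± 7.90 CPM in KO LPS and 35.1 ± 16.6 CPM in WT LPS, with 778 ± 180 CPM in KO M0 and 937 ± 84.8 CPM in WT M0 (1.13 ± 0.21, adjusted p = 0.00159). Ccl22, a chemokine at only 14 ± 2.79 CPM in KO LPS and 4.08 ± 4.24 CPM in WT LPS, had the highest fitted term of the list (2.57), and in M0 it had at most 0.103 CPM in any library.

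Stress and redox genes followed. Of 24 NRF2 targets and genes of redox defence, 15 were higher and none lower, with a median of 0.50. Hmox1, which encodes heme oxygenase 1, averaged 2121 ± 333 CPM in KO LPS and 1410 ± 39.9 CPM in WT LPS, with 261 ± 30.8 CPM in KO M0 and 354 ± 12.4 CPM in WT M0 (1.05 ± 0.13, adjusted p = 8.06e-05). Gclm, the modifier subunit of the first enzyme of glutathione synthesis, averaged 82.7 ± 8.24 CPM in KO LPS and 49.2 ± 14.7 CPM in WT LPS (1 ± 0.15, adjusted p = 0.00037). Srxn1, which restores oxidised peroxiredoxins, had a term of 0.67 ± 0.10 (adjusted p = 0.000227). The count for this list was 11 without KO libraries 5 and 6 and 8 without WT LPS library 3. In the iron handling list 4 of 15 genes (26.7%) were higher: Slc40a1, Hmox1, Slc11a2, the iron transporter DMT1 (0.48), and Spic, a transcription factor of iron-recycling macrophages (1.30).

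Of 28 genes of glycolysis and the hypoxia response, 8 were higher and none lower, with a median of 0.25, and the called members that lead the list are HIF targets. Adm, the vasoactive peptide adrenomedullin, averaged 45.0 ± 14.5 CPM in KO LPS and 15.3 ± 7.26 CPM in WT LPS, with 24.1 ± 1.79 CPM in KO M0 and 35.7 ± 2.24 CPM in WT M0 (1.5 ± 0.15, adjusted p = 4.36e-06). Egln3, a HIF prolyl hydroxylase (1.36), Bnip3, a mitophagy receptor (0.89), and Ndrg1 (0.95) were also called, as were the glycolytic enzyme genes Pfkp (0.75) and Hk1 (0.50). Of 21 p53 targets and apoptosis genes, 8 were higher and none lower, among them Mdm2, the ubiquitin ligase for p53 (0.66 ± 0.08, adjusted p = 5.86e-05), the death receptor gene Fas (0.95) and Pmaip1, which encodes NOXA (1.27). Of 16 heat shock proteins, Hspa1a, Hspa1b and Dnaja1 (0.43) were higher, and Hsf1, the heat shock transcription factor, was lower (-0.47). With RLE size factors 5 were higher, and none was lower in DESeq2 or without WT LPS library 3 or WT LPS library 4. Of 35 amino acid response genes, 4 were higher, Ddit3 (0.70), Vldlr (0.54), Ppp1r15a (0.54) and Wars (0.43), while the list median was -0.04. This share of 11.4% is near the 9.97% of all genes. The count was 2 in DESeq2 and without KO LPS library 5, KO LPS library 6 or WT LPS library 3, 1 without WT LPS library 4 and 9 without KO libraries 7 and 8. That list was higher in KO by about the same median in both states, 0.32 with LPS and 0.35 in M0.

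Lipid and eicosanoid genes moved in both directions. The fatty acid-binding protein genes Fabp4 (1.25 ± 0.12, adjusted p = 5.11e-06) and Fabp5 (0.78 ± 0.10, adjusted p = 9.02e-05) had higher terms. The log2 response of Fabp4 was -0.10 in KO and -1.35 in WT. Fabp4 averaged 61.6 ± 12.0 CPM in KO LPS and 15.3 ± 4.28 CPM in WT LPS, with 60.5 ± 4.62 CPM in KO M0 and 39.4 ± 2.67 CPM in WT M0. Mertk, a receptor for apoptotic cells, was higher (0.58), and Lpl (-0.59), Fasn (-0.46) and the cholesterol exporter gene Abca1 (-0.44) were lower, which makes 3 in each direction of 25 LXR target and lipid genes, with 1 lower without WT LPS library 3 or WT LPS library 4. In the prostanoid and leukotriene list 4 of 17 were higher, Ptgs2, Ptgs1 (1.17), Hpgds (0.69) and the phospholipase gene Pla2g4a (0.54), and 2 lower, the 5-lipoxygenase gene Alox5 (-1.03) and the prostaglandin receptor gene Ptger2 (-0.56), of which none was lower in DESeq2, without KO libraries 5 and 6 or without WT LPS library 3. Ptgs1, which encodes COX-1, differed in M0, at 20.7 ± 3.29 CPM in KO M0 and 57.2 ± 4.68 CPM in WT M0, and was at 5.38 ± 0.566 CPM in KO LPS and 3.21 ± 3.71 CPM in WT LPS. These LPS means lie under the 15.05 to 18.03 CPM that 3 counts give in a shallow library. The term of Ptgs1 was not called in DESeq2 (adjusted p = 0.191).

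Among the lists with lower terms, ribosome biogenesis had 6 of 25 genes lower and none higher, with a median of -0.21 and a positive term in 1 of 25. Bop1, a factor of the large ribosomal subunit, averaged 66.9 ± 3.80 CPM in KO LPS and 94.7 ± 18.4 CPM in WT LPS, with 68.8 ± 2.05 CPM in KO M0 and 69.1 ± 2.42 CPM in WT M0 (-0.44 ± 0.09, adjusted p = 0.00435). Polr1a, the catalytic subunit of RNA polymerase I, averaged 36.3 ± 4.01 CPM in KO LPS and 53.7 ± 11.2 CPM in WT LPS (-0.51 ± 0.11, adjusted p = 0.0061). Rrp9 (-0.47), Bysl (-0.51), Dkc1 (-0.52) and Nolc1 (-0.38) were the others, and the count was 3 without WT LPS library 3, 11 without KO LPS library 8 and 1 in DESeq2. In the mitosis and DNA replication list 6 of 41 were lower, among them the replication factors Mcm2 (-0.56) and Mcm3 (-0.44), and 3 were higher, Tpx2 (0.53), Ccne1 (0.55) and Pcna (0.36). In either direction 22% of this list was called, beside 9.97% of all genes tested. Over all genes 4.12% were lower and 5.85% were higher, so the higher count is near the background. The lower count for mitosis was 0 without WT LPS library 3, 2 without WT LPS library 4 and 0 in DESeq2, and the higher count was 1 without either of these libraries.

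The remaining lists had few calls or calls in both directions. None of 36 cytosolic ribosomal protein genes passed in edgeR, with 2 at an unadjusted p under 0.05 and 1 called higher in DESeq2. None of 25 cholesterol genes passed in edgeR or in DESeq2, with 2 at an unadjusted p under 0.05 in edgeR. Of 35 oxidative phosphorylation and TCA cycle genes, Cycs, cytochrome c (0.42), and Uqcrfs1 (0.32) were higher and Dlst (-0.31), Sdhb (-0.31) and Suclg1 (-0.37) were lower, 14.3% in all. No gene was lower with RLE size factors, in DESeq2 or without WT LPS library 4, and 1 was lower without WT LPS library 3, KO M0 library 8 or WT M0 library 1, against 5 without WT LPS library 1. Uqcrfs1 was called in 5 of the 16 fits that leave out 1 library, and not in DESeq2 (adjusted p = 0.0913) or without KO libraries 5 and 6 (adjusted p = 0.0958). Of 30 insulin, PI3K and mTOR genes, Pik3r1 (0.55) and Rheb (0.38) were higher and Rptor (-0.40) was lower, a share of 10% beside the 9.97% of all genes. Rptor was not called with RLE size factors (adjusted p = 0.0545), in DESeq2 (adjusted p = 0.31) or without KO LPS library 7, WT LPS library 3 or WT LPS library 4, and the lower count reached 3 without the shallow libraries. Of 21 ER chaperone genes, Hyou1 was lower (-0.28), and not without KO LPS library 6, WT LPS library 3 or WT LPS library 4. This share of 4.76% is near the 4.12% of all genes that were lower. Of 30 lysosome genes, 6 were higher, led by the autophagy receptor gene Sqstm1 (0.61 ± 0.10, adjusted p = 0.000482) and the lysosomal acid lipase gene Lipa (0.84 ± 0.14, adjusted p = 0.00072), and Neu1 was lower (-0.40). In either direction 23.3% of the lysosome list was called, beside 9.97% of all genes. The higher count was 3 without KO LPS library 6, WT LPS library 3, KO M0 library 7, WT M0 library 1, WT M0 library 2 or WT M0 library 3, and no gene was lower with RLE size factors or in DESeq2. Of 22 matrix metalloproteinases, inhibitors and serpins, 6 (27.3%) were higher, among them Serpinb9, an inhibitor of granzyme B (0.69), and Plau, the urokinase gene (0.63), with 11 without KO libraries 7 and 8. Of 32 macrophage identity genes, 5 were higher and 4 lower. Those with a higher term numbered 3 without WT LPS library 4, 8 without KO LPS library 8 and 11 without KO libraries 7 and 8, and the lower count was 2 without the shallow libraries, without WT LPS library 3 and in DESeq2. Gpr84, a fatty acid receptor induced in inflammation, averaged 407 ± 79.3 CPM in KO LPS and 626 ± 28.1 CPM in WT LPS, with 5.71 ± 1.02 CPM in KO M0 and 20.4 ± 4.78 CPM in WT M0. KO was thus lower in both states, and the higher term (1.14 ± 0.21, adjusted p = 0.00195) followed from a larger genotype difference in M0 than with LPS.

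**Figure D5:**
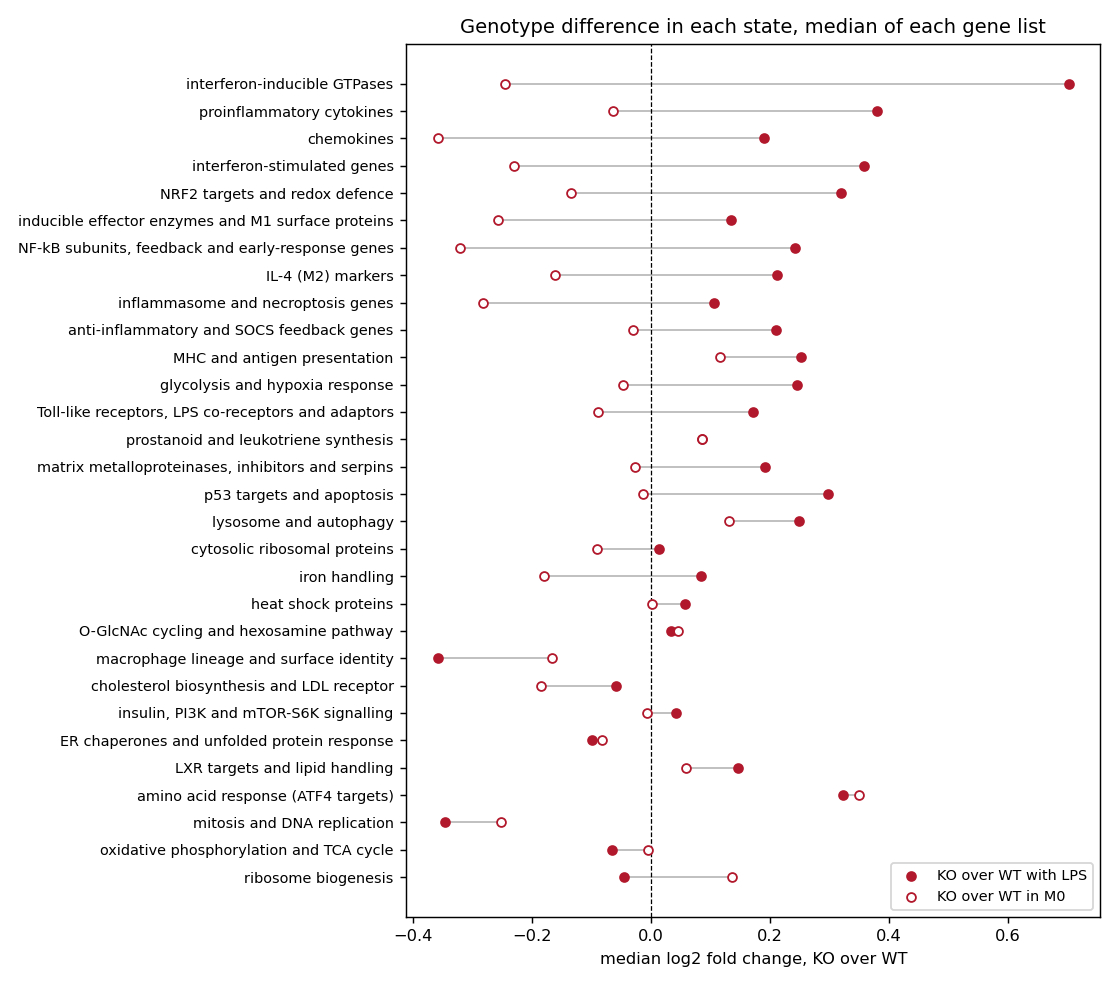
Median log2 fold change of KO over WT in each of the 30 gene lists, with LPS (filled) and in M0 (open). The interferon, chemokine, NF-kB and inflammasome lists lie below 0 in M0 and above 0 with LPS, whereas the amino acid response list lies near 0.32 to 0.35 in both states.

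Markers of other cell types were counted in the same libraries. Summed markers of neutrophils stood at 32.9 to 72.1 CPM in KO LPS, 45.1 to 67.2 CPM in WT LPS, 25.9 to 40.3 CPM in KO M0 and 31.7 to 43.4 CPM in WT M0, and 0 of 9 tested were called. Summed stromal and fibroblast markers, mostly collagens, stood at 21480 to 22900 CPM in KO LPS and 14370 to 17450 CPM in WT LPS, and at 19940 to 26340 CPM in KO M0 and 14550 to 16640 CPM in WT M0. Of 12 stromal markers, Pdgfra was higher (0.63) and Pdgfrb lower (-0.45) in the interaction, the lower count being 0 to 3 when single libraries were left out. Summed endothelial markers stood at 85.4 to 156 CPM in KO LPS and 20.1 to 50.7 CPM in WT LPS, with 46.6 to 112 CPM in KO M0 and 27.9 to 31.4 CPM in WT M0, and 0 of 10 were called. Stromal and endothelial levels were thus higher in KO in both states, and their part in genes such as Fgfr2, Jag1, Lama1, Ednrb, Ptgs2 and Il6 was not tested. Of 9 osteoclast markers Acp5 was higher (1.36), a share of 11.1% near the 9.97% of all genes. Of 5 dendritic cell markers the interferon-stimulated gene Bst2 was higher (0.59), a share of 20%. None of the tested markers of T and NK cells (3), B and plasma cells (5), mast cells and basophils (2), erythroid cells (3) and megakaryocytes (6) was called. In these 5 lists and those of neutrophils and endothelial cells DESeq2 made no call either, and edgeR gave an unadjusted p under 0.05 for 2 neutrophil, 1 endothelial, 1 erythroid and 2 megakaryocyte markers.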

How the data were processed

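RNA sequencing of total RNA from 16 libraries in 4 groups was used; the 8 IL-4 libraries enter an alternative only. The authors deposited raw counts per gene symbol, made with TopHat2 2.1.0 on mm10 (GRCm38) and HTSeq 0.9.1, per the submitters' processing notes. Which annotation, kit and strand option were used is not stated, so overlapping or antisense genes were not separated. The files held 24421 symbols and 5 summary lines, which were left out; reads with no feature or an ambiguous one came to 5.488% to 5.93% of counts. CPM used effective library sizes. In R 4.3.3, edgeR 4.0.16 was run with TMM, filterByExpr (14402 genes) and the quasi-likelihood test, with a coefficient for each group (12 residual degrees of freedom). Errors are SE for log2 values and SD for CPM. Alternatives were 24 libraries, other scalings, DESeq2 1.42.0, other filters, the label number as a block, and libraries left out. The procedure was run on simulated counts at the WT M0 level in every group, with changes in KO LPS only. They held no LPS response shared by the genotypes, so genes induced strongly from very low M0 levels were not covered.

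The genes named are Ogt and Mgea5, an 11-gene panel, the 12 largest called terms in each direction that were also called without the shallow libraries with a group mean of at least 20 CPM, and up to 3 called members of each of 30 gene lists with the smallest adjusted p; other members of a list were named after their values were seen. The libraries compared, the lists and the panel were chosen with earlier results of these data known. Lists are described by counts and medians, with no set test. The planned responses by label number are not given, since the numbers did not pair the libraries. A gain in CPM for 9 genes, LPS minus M0 by that number, was added after the data were seen and is not reported, since it repeats the LPS level; the fit without WT LPS libraries 1 and 2 was also added then. Positions and promoters come from RefSeq (GRCm38.p6), in which 23204 symbols matched directly. Slc40a1 and Il27 had no entry in the promoter table used.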

Additional observations from a re-analysis of the deposited data

Results flagged for a closer look

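Of 432 sets of 4 CPM values (108 named genes in 4 groups), 43 held a library far from the other 3, where chance flags about 1 in 20. Of these, 30 were in the 3 shallow libraries, where they stand for 0 to 85 counts. The part of depth in them was not tested.

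In KO LPS library 7 the values lay above the other KO LPS libraries for Ogt (54.1 CPM), Mgea5 (78.1), Rps6kb1 (66.1), Ldlrad3 (18), Dnaja1 (511), Ccne1 (24) and Fas (96.2). They lay below them for Il6 (0 CPM, against 37.9 to 42.8), Entpd1 (18), Ddit3 (102), Dlst (78.1) and Mcm2 (6.01). In WT LPS library 1 the values were high for Cd33 (25.1 CPM), Casp4 (115), Egln3 (25.1) and Ccne1 (15), and low for Mgea5 (45.1), Slc40a1 (0), Cflar (331), Parp9 (145) and Mdm2 (135). In WT LPS library 2 they were high for Lama1 (30.7 CPM), Mx2 (118) and Srxn1 (194), and low for Irgm1 (276), Ppp1r15a (15.4), Uqcrfs1 (35.8), Cd83 (5.12), Mrc1 (10.2) and Slc11a2 (123).

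Among deep libraries, WT M0 library 1 stood above the other WT M0 libraries in 4 LPS-induced genes, with 4.11 CPM of Il1b (0.593 to 0.952 in the others), 7.75 of Irg1 (0.765 to 1.56), 0.987 of Il1a (0.485 to 0.532) and 64.7 of Icam1 (52 to 54). WT M0 library 2 was high for Il10 (1.29 CPM) and Mx2 (1.39) and low for S1pr3 (25.1) and Pik3r1 (101), and WT M0 library 3 was low for Tpx2 (70.4). KO LPS library 8 was low for Tnip3 (187 CPM, against 270 to 281). KO M0 library 5 was high for Il27 (0.34 CPM) and Gcnt1 (34.9), and KO M0 library 7 was low for Sqstm1 (553).

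For a second set of results the LPS effect differs between KO and WT by the test of the difference itself, edgeR's interaction term, for panel genes and for the largest terms. The higher terms (log2, KO minus WT) were 2.53 for Slc40a1, 2.18 for Serpina3g, 2.02 for Il27, 1.98 for Tnip3, 1.96 for Ptgs2, 1.93 for Tgtp1 and for Ednrb, 1.92 for Il10, 1.85 for Hspa1a, 1.64 for Entpd1, 1.55 for AW112010, 1.54 for Tma16, 1.53 for S1pr3, 1.25 for Il6 and 0.61 for Tnf. The lower terms were -1.28 for Il1a, -1.06 for Gcnt1, -1.02 for Dio3, Siglec1 and Cd33, -1.01 for Fgfr2, -1 for Jag1 and Ldlrad3, -0.891 for Pprc1, -0.865 for Mtss1l, -0.841 for Sox12 and -0.802 for Lama1.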

How the results depend on the processing

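Counts of called genes, 842 higher and 594 lower, stayed within 1.5 times under the fit of 24 libraries, both edgeR scalings, both filters, the removal of the 3 shallow libraries and that of WT LPS libraries 1 and 2 alone (chosen after seeing the data). They moved further in DESeq2 (494 and 64, with 5307 adjusted p missing), for the lower calls without KO numbers 5 and 6 (975) and for the higher calls without KO numbers 7 and 8 (1357). Leaving out 1 library gave 429 to 1045 higher and 231 to 1123 lower calls, with both lowest counts without WT LPS library 3 and both highest without KO LPS library 8. Without WT LPS library 4 there were 472 and 265, and without KO LPS library 6 there were 556 higher. The cause of these shifts was not tested. In the shallow libraries 3 counts are 15.05 to 18.03 CPM, which limits genes at lower levels with LPS, such as Il10 and Gcnt1, and Entpd1 in WT.

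Label numbers did not pair the libraries. The correlation of same-number deviations over 7070 genes was 0.105 to 0.268 in KO and -0.0727 to 0.0993 in WT, and 3 of 8 numbers correlated best with themselves. With the number as a replicate block there were 1065 higher and 776 lower calls, and 1079 and 595 without the shallow libraries. Of the 108 named genes, the block ended the calls of Il6 (adjusted p = 0.0549), Hyou1 (0.0531) and Uqcrfs1 (0.0763) and Lyz2 was called with it (0.0434).

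Of the 108 named genes, 107 kept direction and call without the shallow libraries (Tnf lost its call), 87 of 105 in DESeq2 and 94 without KO numbers 5 and 6. The reversed terms were those of 5 genes that were not called with all 16 libraries. With the replicate block and no shallow libraries Il1b was -0.176, Irg1 -0.09171, Nos2 -0.3749 and Cxcl10 -0.3008. Without KO numbers 5 and 6 Nos2 was -0.3495 and Cxcl10 -0.04715. When single libraries were left out Il1b ranged between -0.3133 and 1.114, Irg1 between -0.5453 and 1.124, Nos2 between -0.2977 and 0.9755 and Cxcl10 between -0.4557 and 0.602, each with its lowest value without WT M0 library 1. Rps6kb1 was 0.007972 in DESeq2.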
